A study of Mus musculus with 13 samples.

Results

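Mammary tumors and the lungs of the same animals were compared by RNA sequencing, in 3 mice with 1 library of each tissue, so that 6 of the 13 libraries of the series entered as 3 pairs. All 3 mice, numbered 6877, 6880 and 6881, were female FVB mice 10 weeks old that carried a tumor grown for 2 weeks from 250000 Met1 cells, placed at 8 weeks of age in the inguinal mammary fat pads. Met1 is a mouse mammary carcinoma line of FVB origin, so every tumor came from 1 line, and a tumor library holds the RNA of Met1 cells together with that of the host fat pad, vessels and blood. Total RNA was taken from 20 mg of frozen tissue. The 3 tumors and the lung of mouse 6877 were prepared in batch 2, whereas the lungs of mice 6880 and 6881 were prepared in batch 1. Tissue and batch could therefore be told apart within 1 pair only. A fit with a batch term added 4 further libraries, of the lungs of 2 mice without a tumor, each prepared in both batches. It drew the batch difference from these and from the gap between the pair of mouse 6877 and the other pairs. In bulk tissue, fewer cells of a type and less RNA per cell cannot be told apart.

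The lung is built of alveolar type 1 cells, which form the gas exchange surface, alveolar type 2 cells, which make surfactant, airway club and ciliated cells, and a dense capillary bed. A mammary carcinoma grows from milk duct epithelium, whose luminal cells carry keratins 8 and 18 and respond to prolactin and whose basal cells carry keratin 14. It brings in macrophages, fibroblasts and vessels of its own while its epithelial cells divide.

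The 6 libraries held 9786993 to 13983506 estimated counts, of which 45.6 to 59.0% were from protein-coding genes. The noncoding gene Rn7s1 took 37.8% of the counts of lung 6877, 10.3 and 5.55% of those of lungs 6880 and 6881 and 19.5 to 33.4% of those of the tumors, so that both lungs of batch 1 lay below every library of batch 2. Levels are given in CPM (a share of counts scaled to a common total) of library sizes scaled by TMM factors, always in the order of mice 6877, 6880 and 6881. Nothing says that more than 1 library was made of a tissue. With the mouse as a block, p-values rest on the spread of the difference between tumor and lung over the 3 mice. That spread also holds the batch difference between the pair of mouse 6877 and the other pairs. The genes Gm12895 and Gm12896 together took 3.21, 12.1 and 17.7% in lungs 6877, 6880 and 6881 and 2.26 to 9.61% in the tumors. In lungs 6886 and 6888, of mice without a tumor, they took 5.12 and 5.83% in batch 1 and 3.04 and 2.88% in batch 2. Whether batch acted alike on lungs with and without a tumor was not tested. Gene positions are those of GENCODE M21 on mm10. Defining genes matched the labelled tissue in every library. Csn3, which encodes the milk protein kappa-casein (ENSMUSG00000001622, chr5:87925579-87932665), had 365, 242 and 327 CPM in the tumors and 1.5, 0.886 and 1.01 CPM in the lungs. Sftpc, which encodes surfactant protein C (ENSMUSG00000022097, chr14:70520949-70524081), had 7283, 2592 and 2630 CPM in the lungs and 6.43, 0.295 and 6.59 CPM in the tumors.

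**Figure D1:**
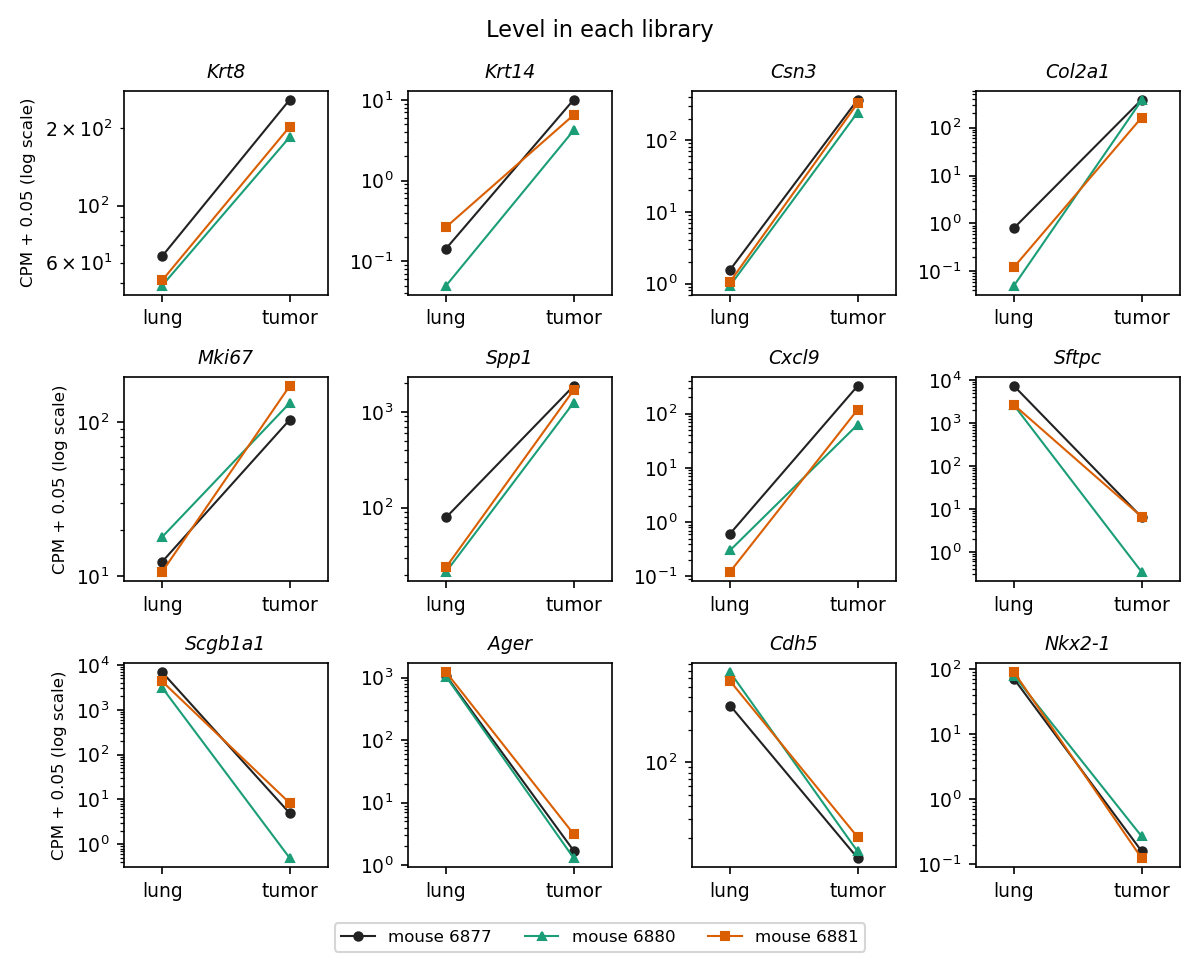
Level of 12 genes in each of the 6 libraries, in CPM plus 0.05 on log axes that differ between panels, with lung on the left, tumor on the right and a line joining the tissues of 1 mouse. In every panel the 3 lines run the same way, up for the 7 genes from Krt8 to Cxcl9 and down for the 5 genes from Sftpc to Nkx2-1.

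Genes higher and genes lower in tumor were near equal in number. Of 17419 genes tested with edgeR, with the mouse as a block, 7810 passed an adjusted p of 0.05 (44.8%), of which 3862 were higher in tumor (22.2% of those tested) and 3948 lower (22.7%). Counts of called members in the gene lists below are to be read against these 22.2 and 22.7%. The lists were chosen with earlier results of these data known, so such counts in part describe that choice. The median log2 fold change, tumor over lung, over all genes tested was −0.06, with quartiles at −0.99 and 0.88, and the median size among called genes was 1.96. The largest differences ran toward the lung. A log2 fold change of at least 5 in size was found for 188 genes higher and 540 genes lower in tumor. Among called genes 7560 had tissues that did not overlap and 7809 had the same sign in all 3 pairs. All 7810 had the sign of the pair of mouse 6877, whose tissues were both prepared in batch 2. That pair is 1 of the 3 that gave the calls, so its agreement was largely built in and is no test of batch. Without mouse 6880 the count was 4905, and in the libraries of batch 2 alone 3927. With the batch term over 10 libraries, 8559 of 18367 genes passed (46.6%), and they included 6943 of the 7810 in the same direction. In that fit 2 of the 7810 had the opposite sign, neither of them called.

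**Figure D2:**
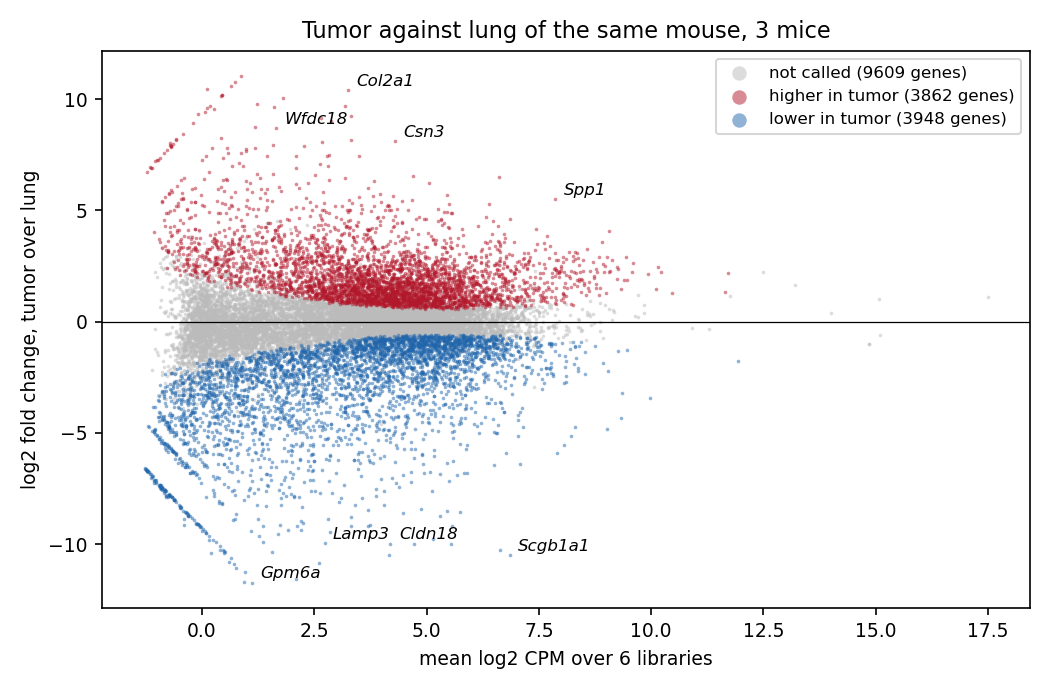
Log2 fold change of tumor over lung against the mean log2 CPM over 6 libraries, 1 point per gene, red where called higher in tumor, blue where called lower and grey where not called. Points along the straight edges at the left are genes with 0 to 3 counts in a whole tissue, whose fitted values are no bounds; the 3862 red and 3948 blue points are near equal in number, and Gpm6a and Col2a1 lie near the lower and upper ends.

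The 12 genes highest in tumor relative to lung, chosen by a size rule, were collagens of cartilage type (Col2a1, Col11a1, Col9a1, Col9a2), genes of mammary or other surface epithelium (Serpinb5, Tfap2c, Wfdc18, Csn3) and single genes of other roles (Tbx15, Cxcl9, Cdhr1, Cfd). Tbx15, a T-box transcription factor of limb and fat, had 63.1, 84.9 and 39.9 CPM in the tumors and 0.0939, 0.0633 and 0 CPM in the lungs. The 3 lungs together held 2 counts of it, which gives a ratio of 1266 with a 95% counting interval of 350 to 10460. Serpinb5, the mammary serpin maspin, had 48.4, 23.3 and 25.5 CPM in the tumors and 0, 0.0633 and 0 CPM in the lungs, with 1 count in all lungs and a ratio of 1226 with a 95% counting interval of 219.6 to 48480. Wfdc18, a small whey acidic protein relative, had 63.8, 21.9 and 51.9 CPM in the tumors and 0.376, 0 and 0 CPM in the lungs (log2 fold change 8.69 ± 0.65 (SE), adjusted p = 0.000334). The rule took only called genes with 1 direction in all 3 pairs and tissues that did not overlap. That every tumor lay above every lung for these genes was therefore set by the choice.

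The 12 genes lowest in tumor included surfactant, alveolar type 1, airway and stromal genes of lung. They were Gpm6a, C7, Cyp2b10, Scgb1a1, Sec14l3, Tcf21, Sftpc, Inmt, Sftpb, Cldn18, Lamp3 and Acoxl. Gpm6a, a membrane glycoprotein, had 20, 26.8 and 50 CPM in the lungs and 0, 0 and 0 CPM in the tumors. With 0 counts in 3 tumors it was at least 393-fold lower in tumor, taking 3 counts over the group as the floor. C7, a late component of complement, had 61.4, 157 and 112 CPM in the lungs and 0, 0 and 0.0758 CPM in the tumors, and 1 count in the tumors against 4695 in the lungs, which gives a ratio of 4161 with a 95% counting interval of 746 to 164400. Scgb1a1, which encodes the secretory protein of club cells, had 6900, 3115 and 4299 CPM in the lungs and 4.88, 0.443 and 8.26 CPM in the tumors (log2 fold change −10.51 ± 0.94 (SE), adjusted p = 0.000539). The tumor of mouse 6880 stood below the other tumors for Scgb1a1 and Sftpc. That every lung lay above every tumor was required by the rule. Summed over these 12 genes, as CPM of raw library totals, the tumors held 13.4, 2.52 and 20.2 against 17090, 10560 and 11810 in the lungs. The sum over the 12 tumor genes was 6.09, 1.72 and 1.88 in the 3 lungs, and 1.85 to 13.2 in the 6 libraries of lungs without a tumor. The genes were chosen for low values in these 3 lungs, and the lungs without a tumor took no part in the choice. That sum therefore cannot compare these lungs with lungs without a tumor. The gap between tumors and lungs in both sums follows from the choice as well.

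Markers of milk duct epithelium were higher in tumor for some genes, among them Krt8, Krt18, Epcam and Prlr, and lower for others, among them Krt19 and Pgr. Of 21 tested markers of luminal epithelium 11 were higher in tumor and 4 lower (median log2 fold change 1.26), and 3 more were too low to test. Krt8 and Krt18 encode the paired keratins of simple epithelium. Krt8 (ENSMUSG00000049382, chr15:101996698-102004482) had 258, 185 and 203 CPM in the tumors and 63.5, 48.8 and 51.1 CPM in the lungs (log2 fold change 1.98 ± 0.21 (SE), adjusted p = 0.000946). Krt18 had 272, 189 and 190.2 CPM in the tumors and 36, 27.5 and 34 CPM in the lungs (log2 fold change 2.73 ± 0.23 (SE), adjusted p = 0.000449). Tumors and lungs did not overlap for either. Lung epithelium also makes both keratins. Epcam, an adhesion protein of epithelial cells, had 413, 303 and 267 CPM in the tumors and 37.6, 25.6 and 29.9 CPM in the lungs (log2 fold change 3.39 ± 0.25 (SE), adjusted p = 0.00031).

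Among luminal transcription factors, Tfap2c had 43.6, 62.8 and 35.8 CPM in the tumors and 0, 0.0633 and 0.072 CPM in the lungs, with 2 counts in all lungs and a ratio of 967 with a 95% counting interval of 267 to 7995. Its relative Tfap2a was higher by 6.92 ± 0.41 on the log2 scale, Gata3 by 2.00 ± 0.22 and Elf5, the regulator of the milk-secreting lineage, by 2.41 ± 0.24. Prlr, the prolactin receptor, had 42.6, 50.8 and 29.6 CPM in the tumors and 1.78, 1.33 and 1.87 CPM in the lungs (log2 fold change 4.59 ± 0.33 (SE), adjusted p = 0.000301). The steroid receptors were low in both tissues. Esr1, the estrogen receptor, had 2, 3.25 and 2.8 CPM in the tumors and 1.88, 2.79 and 3.39 CPM in the lungs, which overlapped (log2 fold change 0.01 ± 0.41 (SE), adjusted p = 0.985). Pgr, the progesterone receptor, had 0.776, 0.961 and 1.36 CPM in the tumors and 3.19, 5.07 and 5.4 CPM in the lungs and was lower in tumor (log2 fold change −2.13 ± 0.43 (SE), adjusted p = 0.00875). Krt19, another simple keratin, went the other way from Krt8 and Krt18, with 3.99, 3.77 and 4.55 CPM in the tumors against 96.2, 81.9 and 81.5 in the lungs (log2 fold change −4.39 ± 0.23 (SE), adjusted p = 0.000181). Kit, the receptor of luminal progenitors and mast cells, was lower as well (−3.69 ± 0.66 on the log2 scale). Krt7 was lower in the paired fit (log2 fold change −0.84 ± 0.26 (SE), adjusted p = 0.0414) but did not pass with the batch term (−0.41, adjusted p = 0.267).

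Of 11 basal and myoepithelial markers only 5 were abundant enough to test, of which 3 were higher and none was lower (median log2 fold change 2.86). Krt14, the basal keratin, had 9.98, 4.14 and 6.44 CPM in the tumors and 0.0939, 0 and 0.216 CPM in the lungs (log2 fold change 5.98 ± 0.73 (SE), adjusted p = 0.00144). Trp63, the basal lineage regulator, had 7.54, 7.39 and 2.27 CPM in the tumors and 0.282, 0.633 and 0.432 CPM in the lungs (log2 fold change 3.49 ± 0.59 (SE), adjusted p = 0.00456). Every tumor was above every lung for both. The basal keratins Krt5, Krt15 and Krt17 were too low to test. Milk protein genes were carried unevenly. Csn3, given above, was higher by 8.11 ± 0.31 on the log2 scale. Wap had 5.66, 1.11 and 1.67 CPM in the tumors and 0, 0 and 0 CPM in the lungs, at least 33.1-fold higher in tumor. Btn1a1, the butyrophilin of milk fat globules, had 0.887, 1.03 and 1.14 CPM in the tumors and 0, 0 and 0 CPM in the lungs, at least 13.9-fold higher, which did not pass with the batch term (adjusted p = 0.094). Lalba, the lactose synthase partner alpha-lactalbumin, had 4.21, 1.55 and 4.32 CPM in the tumors and 0.282, 0 and 0 CPM in the lungs, with 3 counts in the lungs and a ratio of 43.6 with a 95% counting interval of 14.6 to 215. The caseins Csn1s1, Csn1s2a and Csn2 were too low to test, and Xdh, the xanthine oxidoreductase of fat globules and vessels, was lower in tumor (log2 fold change −1.64 ± 0.24 (SE), adjusted p = 0.00292). Of the 6 tested milk genes 4 were higher and 1 lower, with a median of 6.06, or 4.42 with genes at 0 counts set to their bound.

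Receptors of the ERBB family, MET and their ligands went both ways. Of 11 tested receptors and ligands 2 were higher and 4 lower (median log2 fold change −0.54). Over all genes 22.2% were higher and 22.7% lower, and with the batch term 2 of the list were higher and 2 lower (median −0.20). Erbb2 had 33.8, 77.4 and 48.5 CPM in the tumors and 26.1, 40.5 and 32.3 CPM in the lungs, where tumor 6877 lay within the lungs, and passed narrowly (log2 fold change 0.63 ± 0.21 (SE), adjusted p = 0.0497). Met had 67.1, 61.9 and 48.3 CPM in the tumors and 68.1, 42.5 and 38.8 CPM in the lungs (log2 fold change 0.28 ± 0.21 (SE), adjusted p = 0.32). Feedback genes of ERK signaling, which the pathway itself turns on, included larger differences. Etv4, a PEA3 family factor, had 17.9, 31.1 and 18.9 CPM in the tumors and 0, 0.19 and 0.072 CPM in the lungs (log2 fold change 7.82 ± 0.50 (SE), adjusted p = 0.000246). Dusp6, an ERK phosphatase, had 154, 158 and 108 CPM in the tumors and 59.3, 70.2 and 74.9 CPM in the lungs (log2 fold change 1.02 ± 0.25 (SE), adjusted p = 0.018). In that list 5 of 10 members were higher and 1 lower.

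A group of cartilage-type collagen genes was high in all 3 tumors. These genes and the SOX factors beside them were chosen after their values were seen, so their counts describe the choice. Type II collagen is the main fibril of cartilage, and types IX and XI bind to it. Col2a1 (ENSMUSG00000022483, chr15:97975602-98004695) had 384, 371 and 162 CPM in the tumors and 0.751, 0 and 0.072 CPM in the lungs (log2 fold change 10.40 ± 0.79 (SE), adjusted p = 0.000355). Col11a1 had 213, 260.4 and 174 CPM in the tumors and 0.845, 0.127 and 0.216 CPM in the lungs (log2 fold change 9.23 ± 0.58 (SE), adjusted p = 0.000243). Col9a1 had 157, 129 and 113 CPM in the tumors and 0.939, 0 and 0 CPM in the lungs (log2 fold change 9.13 ± 0.88 (SE), adjusted p = 0.000659). Over Col2a1, Col11a1 and Col9a1 the lowest tumor value was 113 CPM and the highest lung value 0.939 CPM, and among the lungs that of mouse 6877 was highest for each. In lungs of mice without a tumor, Col2a1 had 0 to 17 counts per library. Col9a2 and Col9a3, which join Col9a1 in type IX collagen, were higher by 7.96 ± 0.67 and 7.02 ± 0.33 on the log2 scale. Of 15 collagen and matrix genes of cartilage looked at, 10 could be tested, of which 9 were higher and 1 lower. Beside those 5 collagens, Snorc, a proteoglycan of chondrocytes, and Mia, a protein secreted by cartilage, were higher by 6.41 ± 0.77 and 5.57 ± 0.42 on the log2 scale, and Col11a2 by 1.94 ± 0.60. Cnmd, chondromodulin, had 0 counts in the lungs and was at least 25.6-fold higher. Chad, the matrix protein chondroadherin, was lower (log2 fold change −3.56 ± 0.43 (SE), adjusted p = 0.00142). Acan, the aggrecan core protein, had 0 counts in all 6 libraries, and Matn1, Matn3, Comp and Hapln1 were too low to test. Of the SOX factors, Sox9, a regulator of cartilage and ductal progenitors, had 80.7, 80.6 and 78 CPM in the tumors and 0.751, 0.57 and 1.51 CPM in the lungs (log2 fold change 6.44 ± 0.37 (SE), adjusted p = 0.000208). Sox10, a regulator of neural crest and mammary progenitors, had 59.8, 62.4 and 60.2 CPM in the tumors and 0.376, 0.317 and 0.072 CPM in the lungs (log2 fold change 7.89 ± 0.42 (SE), adjusted p = 0.000181). The 3 tumors were nearly level for both. Of 8 SOX factors tested, 4 were higher and 2 lower, against 22.2% higher and 22.7% lower over all genes. Sox5 and Sox6, the partners of Sox9 in cartilage, had log2 fold changes of 0.29 ± 0.27, adjusted p = 0.43 and 0.20 ± 0.46, adjusted p = 0.757.

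Markers of lung epithelium were near 0 in the tumors for most genes. Of the 48 tested markers of alveolar type 1, alveolar type 2, club and ciliated cells, 44 were lower in tumor and 1 higher, against 22.7 and 22.2% over all genes. The medians were −8.24 for type 2 cells, −7.97 for club cells, −6.98 for type 1 cells and −5.48 for ciliated cells. Of the surfactant genes, Sftpb had 2143, 1282 and 1203 CPM in the lungs and 1.77, 0.295 and 3.41 CPM in the tumors (log2 fold change −9.98 ± 0.83 (SE), adjusted p = 0.000444). Lamp3, of the lamellar bodies that store surfactant, had 194, 127 and 137 CPM in the lungs and 0.111, 0.148 and 0.152 CPM in the tumors (log2 fold change −9.95 ± 0.35 (SE), adjusted p = 0.000166). Etv5, an ETS factor of type 2 cells, was the one type 2 marker not called, with 235, 136 and 95.8 CPM in the lungs and 196, 130.3 and 149.9 CPM in the tumors (log2 fold change 0.11 ± 0.26 (SE), adjusted p = 0.763), and its tissues overlapped. Relative to transcript length, as TPM rescaled over protein-coding genes (coding TPM), Scgb1a1 stood at 26.6 ± 24.4 in the tumors and 41920 ± 11650 in the lungs (SD, n = 3), and Sftpc at 11.4 ± 9.25 in the tumors and 16080 ± 8231 in the lungs (SD, n = 3).

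Ager (ENSMUSG00000015452, chr17:34597862-34600936), the receptor for advanced glycation end products and the usual type 1 marker, had 1062, 1032 and 1216 CPM in the lungs and 1.66, 1.26 and 3.11 CPM in the tumors (log2 fold change −9.17 ± 0.43 (SE), adjusted p = 0.000168). Cldn18, the alveolar claudin, had 601, 453 and 577 CPM in the lungs and 0.222, 0.443 and 0.909 CPM in the tumors (log2 fold change −9.98 ± 0.50 (SE), adjusted p = 0.00017). The exception among the type 1 markers was Aqp5, a water channel that also lines secretory glands, with 414, 281 and 207 CPM in the tumors against 134, 115 and 128 in the lungs (log2 fold change 1.20 ± 0.27 (SE), adjusted p = 0.0138); the tissues did not overlap. Among ciliated cell markers Dnah5, an axonemal dynein, had 12.7, 14.5 and 27.2 CPM in the lungs and 0, 0 and 0 CPM in the tumors, at least 219-fold lower in tumor. Foxj1, the regulator of motile cilia, had 23.4, 14 and 26.1 CPM in the lungs and 19.2, 19.4 and 12.3 CPM in the tumors, which overlapped (log2 fold change −0.30 ± 0.33 (SE), adjusted p = 0.5).

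All 12 transcription factors of lung lineages were lower in tumor (median log2 fold change −6.74). Nkx2-1, the lung and thyroid regulator, had 70.1, 78.8 and 89 CPM in the lungs and 0.111, 0.222 and 0.0758 CPM in the tumors (log2 fold change −9.07 ± 0.38 (SE), adjusted p = 0.000166). Foxa2, a foregut endoderm factor, had 23.3, 25.1 and 23.8 CPM in the lungs and 0, 0 and 0 CPM in the tumors, at least 288-fold lower. Foxf1 and Tbx4, of lung mesenchyme, were also near 0 in the tumors. Foxf1 had 148, 183 and 192 CPM in the lungs and 0.222, 0.443 and 1.06 CPM in the tumors (log2 fold change −8.26 ± 0.42 (SE), adjusted p = 0.00017). Tbx4 had 37, 57.3 and 52.5 CPM in the lungs and 0.111, 0.0739 and 0 CPM in the tumors, with 2 counts in the tumors and a ratio of 898 with a 95% counting interval of 248 to 7423. The smallest difference in the list was that of Klf5, with 23.8, 20.8 and 22.8 CPM in the lungs and 12.1, 13.2 and 13.5 CPM in the tumors (log2 fold change −0.79 ± 0.21 (SE), adjusted p = 0.0242), which was not called with the batch term (−0.52, adjusted p = 0.116). All 15 genes of xenobiotic metabolism were lower too (median log2 fold change −6.13). Aldh1a1, a retinal dehydrogenase, had 278, 237 and 328 CPM in the lungs and 0.665, 0.295 and 0.531 CPM in the tumors (log2 fold change −9.16 ± 0.35 (SE), adjusted p = 0.000166). Fmo2, the flavin monooxygenase of lung, had 678, 942 and 1052 CPM in the lungs and 0.444, 4.21 and 3.94 CPM in the tumors (log2 fold change −8.51 ± 0.65 (SE), adjusted p = 0.000354).

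**Figure D3:**
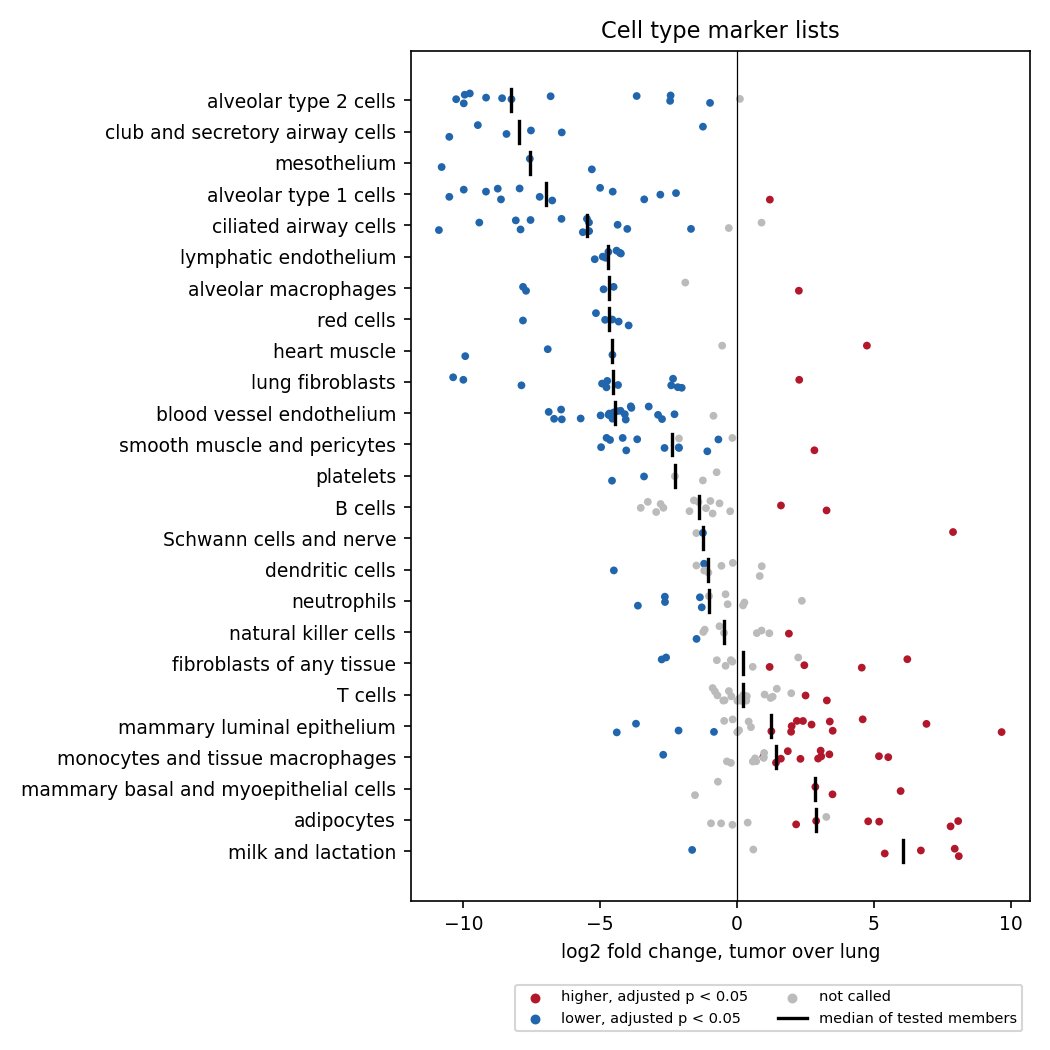
Log2 fold change of tumor over lung for the tested members of cell type marker lists with at least 3 tested members, ordered by median, with 1 point per gene and a bar at the median. Red (higher) and blue (lower) points passed the adjusted p and grey ones did not; lung epithelium lies among the top lines, with medians from −8.24 to −5.48, and milk genes on the lowest line, with a median of 6.06.

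Blood vessel genes were lower in tumor as a group. Of 22 tested markers of vessel endothelium 21 were lower and none higher (median log2 fold change −4.45). Cdh5, the endothelial cadherin, had 334, 678 and 562 CPM in the lungs and 13.1, 15.1 and 20.5 CPM in the tumors (log2 fold change −4.98 ± 0.32 (SE), adjusted p = 0.000246). Kdr, the main VEGF receptor, had 197, 467 and 472 CPM in the lungs and 12, 14.5 and 15.2 CPM in the tumors (log2 fold change −4.68 ± 0.33 (SE), adjusted p = 0.000287). For both, lung 6877 was lower than the lungs of batch 1, and every lung was above every tumor. Car4, a carbonic anhydrase of lung capillaries, fell by more (log2 fold change −6.68 ± 0.33 (SE), adjusted p = 0.00017). Apln, a peptide of sprouting vessels, was the member that did not pass, with 25.6, 39.8 and 45.7 CPM in the lungs and 23.6, 19.7 and 17 CPM in the tumors (log2 fold change −0.86 ± 0.29 (SE), adjusted p = 0.0563). Vegfa, the ligand of Kdr, had 398, 585 and 682 CPM in the lungs and 78.3, 64.1 and 60.9 CPM in the tumors (log2 fold change −3.01 ± 0.33 (SE), adjusted p = 0.000997), and the vessel factors Angpt1, Angpt2, Vegfc and Vegfd were lower as well. They belong to a list of myeloid and vessel cytokines, in which 7 of 15 tested members were lower and 3 higher (Csf3, Lif and Tnf). All 7 genes of lymphatic endothelium, of which 2 are near-identical copies of Ccl21a, were lower (median log2 fold change −4.70), with Lyve1, a hyaluronan receptor, at −5.20 ± 0.39 on the log2 scale.

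Smooth muscle and pericyte genes were lower in 11 of 14 cases and higher in 1 (median log2 fold change −2.39). Myh11, the smooth muscle myosin, had 29.3, 81.2 and 64.8 CPM in the lungs and 1.66, 1.26 and 4.32 CPM in the tumors (log2 fold change −4.64 ± 0.47 (SE), adjusted p = 0.000789). The higher one was Rgs5, a G protein regulator of pericytes, with 32.6, 37.6 and 41.9 CPM in the tumors and 4.04, 5.45 and 6.41 CPM in the lungs (log2 fold change 2.83 ± 0.22 (SE), adjusted p = 0.000356). Acta2, the smooth muscle actin, had 29.3, 64.3 and 72.7 CPM in the lungs and 25.2, 25.2 and 23.2 CPM in the tumors and passed in the paired fit (log2 fold change −1.08 ± 0.32 (SE), adjusted p = 0.0339) but not with the batch term (−0.34, adjusted p = 0.198). Lung 6877 lay near the tumors for Acta2, and the lungs of batch 1 lay above.

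Fibroblast genes split into those of lung and those of any tissue. Of 12 lung fibroblast markers 11 were lower and 1 higher (median log2 fold change −4.54). Tcf21, the regulator of lung lipofibroblasts, had 39, 51 and 56 CPM in the lungs and 0, 0.0739 and 0 CPM in the tumors, 1 count in the tumors and a ratio of 1771 with a 95% counting interval of 318 to 69980. Inmt had 694, 771 and 885 CPM in the lungs and 0.776, 0.443 and 1.14 CPM in the tumors (log2 fold change −10.00 ± 0.44 (SE), adjusted p = 0.000166), and Scara5 was the member that was higher. Of 12 genes shared by fibroblasts of any tissue 4 were higher, 2 lower and 6 not called (median log2 fold change 0.20). Col1a1, the main fibril of connective tissue, had 494, 859 and 659 CPM in the tumors and 227, 777 and 477 CPM in the lungs (log2 fold change 0.58 ± 0.30 (SE), adjusted p = 0.174), and with the batch term it passed (1.47, adjusted p = 0.00325). Lung 6877 was lower in Col1a1 than either lung of batch 1, and lung 6880 lay within the tumors. Lrrc15, a marker of activated tumor fibroblasts, had 18.2, 11.8 and 11.3 CPM in the tumors and 0.376, 0.127 and 0.072 CPM in the lungs (log2 fold change 6.22 ± 0.47 (SE), adjusted p = 0.000347). Thbs2, a matrix thrombospondin, had 54, 38.6 and 49.9 CPM in the tumors and 1.13, 2.66 and 2.23 CPM in the lungs (log2 fold change 4.56 ± 0.38 (SE), adjusted p = 0.000432). Fap, a protease of activated fibroblasts, had 0.887, 5.84 and 3.94 CPM in the tumors and 0.939, 0.317 and 0.72 CPM in the lungs and did not pass (log2 fold change 2.24 ± 0.89 (SE), adjusted p = 0.0865).

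Of 18 fibrillar and basement membrane collagens 2 were higher and 9 lower (median log2 fold change −0.97), against 22.2% higher and 22.7% lower over all genes. Under the batch term 4 were higher and 7 lower (median −0.45). The large differences were those of Col4a3, Col4a4 and Col4a6. The first 2 are of the basement membrane that type 1 cells share with capillaries. Col4a3 had 118, 264 and 228 CPM in the lungs and 0.222, 0.148 and 1.06 CPM in the tumors (log2 fold change −8.81 ± 0.58 (SE), adjusted p = 0.000264). Of 17 matrix glycoproteins 3 were higher and 7 lower, beside the same shares of all genes. Eln, the elastin of alveolar walls, had 63.4, 127 and 80.3 CPM in the lungs and 25.2, 29.7 and 13.4 CPM in the tumors (log2 fold change −2.00 ± 0.29 (SE), adjusted p = 0.00268). Tnc, a matrix glycoprotein of growing and wounded tissue, had 82.6, 113 and 118 CPM in the tumors and 10.7, 55.6 and 23.9 CPM in the lungs (log2 fold change 2.08 ± 0.40 (SE), adjusted p = 0.0072). Proteases of the matrix went both ways, with 8 of 17 higher and 7 lower. Mmp13, a collagenase, had 43.6, 13.8 and 8.19 CPM in the tumors and 0.282, 0.253 and 0.288 CPM in the lungs (log2 fold change 5.95 ± 0.51 (SE), adjusted p = 0.000457). Timp1, a protease inhibitor, had 29.7, 24.4 and 26.7 CPM in the tumors and 1.22, 1.84 and 0.937 CPM in the lungs (log2 fold change 4.35 ± 0.33 (SE), adjusted p = 0.000354). Its relative Timp3 had 571, 689 and 561 CPM in the lungs and 24.3, 28.8 and 33.2 CPM in the tumors (log2 fold change −4.40 ± 0.29 (SE), adjusted p = 0.000258), the opposite direction.

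Some adipocyte genes were higher in tumor. Of 11 tested markers 6 were higher and none lower (median log2 fold change 2.89). With the batch term 6 were higher and 1 lower, Lpl (−1.19, adjusted p = 0.0424), with a median of 1.48, and the medians of the 3 pairs were 1.01, 2.79 and 3.53. Adipoq, the fat hormone adiponectin, had 5.77, 13.6 and 17.6 CPM in the tumors and 0, 0.127 and 0 CPM in the lungs, 2 counts in the lungs and a ratio of 264 with a 95% counting interval of 72.7 to 2186. Cfd, the fat cell protease adipsin, had 44.6, 143 and 138 CPM in the tumors and 0.939, 0 and 0.288 CPM in the lungs (log2 fold change 8.08 ± 0.99 (SE), adjusted p = 0.00146). Fabp4, a fatty acid carrier, had 62.1, 117 and 166 CPM in the tumors and 3.1, 1.65 and 4.68 CPM in the lungs (log2 fold change 5.20 ± 0.41 (SE), adjusted p = 0.000377). For these 3 genes the tumor of mouse 6877 was the lowest tumor and still above every lung. Pparg, Lipe and Lpl, which lung also carries, were not called, with −0.95 ± 1.41, −0.17 ± 0.30 and −0.58 ± 0.49 on the log2 scale. Pparg, the fat cell regulator, had 1.77, 3.03 and 19.5 CPM in the tumors and 6.38, 30.1 and 2.16 CPM in the lungs, so tumor 6881 and lung 6880 stood apart. The summed level of the list was 189, 452 and 549.6 CPM in the tumors and 146, 100.3 and 84.5 CPM in the lungs. All 3 tested markers of mesothelium, the lining of the lung surface, were lower (median log2 fold change −7.57). In the heart list 3 of 5 tested markers were lower, among them Myh6 with 10.4, 10.4 and 8.14 CPM in the lungs and 0, 0 and 0 CPM in the tumors. Tnnt2, a troponin of heart and embryonic muscle, was higher with 38.1, 14.4 and 30.7 CPM in the tumors and 0.751, 0.76 and 1.37 CPM in the lungs (log2 fold change 4.75 ± 0.37 (SE), adjusted p = 0.000366; with the batch term 3.20, adjusted p = 0.0505). Lists with few tested members were skeletal muscle, where Mb alone was tested and was higher (log2 fold change 4.72 ± 0.98 (SE), adjusted p = 0.0101; with the batch term 2.90, adjusted p = 0.206), nerve and mast cells. In the nerve list Mbp was lower (log2 fold change −1.24 ± 0.29 (SE), adjusted p = 0.0157) and Sox10, given above, higher. In the mast cell list Gata2 was lower (log2 fold change −4.81 ± 0.43 (SE), adjusted p = 0.000522). Cpa3, the other tested member, was not called (log2 fold change 1.06 ± 0.87 (SE), adjusted p = 0.364). Mcpt8, Ms4a2 and Tpsb2 were too low to test, and their counts went both ways. The list therefore does not show that mast cells differed.

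Macrophage genes differed by the kind of macrophage they mark. Macrophages of alveoli and of tumors carry partly separate gene sets. Of 19 markers of monocytes and tissue macrophages 11 were higher in tumor and 1 lower (median log2 fold change 1.43), and of 6 tested alveolar macrophage markers 4 were lower and 1 higher (median log2 fold change −4.69). Spp1, the secreted phosphoprotein osteopontin of macrophages and carcinoma cells, had 1867, 1250 and 1690 CPM in the tumors and 79.2, 21.4 and 23.9 CPM in the lungs (log2 fold change 5.53 ± 0.47 (SE), adjusted p = 0.000455). Ms4a7, a macrophage membrane protein, had 43.5, 63.6 and 31.5 CPM in the tumors and 1.13, 1.08 and 1.44 CPM in the lungs (log2 fold change 5.19 ± 0.35 (SE), adjusted p = 0.000273). C1qa, of the complement C1q that macrophages make, had 167, 105 and 88.5 CPM in the tumors and 13.6, 14.9 and 13.1 CPM in the lungs (log2 fold change 3.06 ± 0.27 (SE), adjusted p = 0.000494). Arg1, arginase, had 18.5, 7.46 and 5.53 CPM in the tumors and 1.13, 0.633 and 0.937 CPM in the lungs (log2 fold change 3.38 ± 0.44 (SE), adjusted p = 0.00175). In none of them did the tissues overlap. General macrophage genes were nearer to equal: Csf1r had a log2 fold change of −0.22 ± 0.19, adjusted p = 0.392 and Mrc1 −0.37 ± 0.67, adjusted p = 0.686. Chil3, a chitinase-like protein of alveolar macrophages, had 388, 70 and 43.7 CPM in the lungs and 0.111, 0.295 and 0.985 CPM in the tumors (log2 fold change −7.71 ± 0.98 (SE), adjusted p = 0.00164), and lung 6877 was the highest lung.

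Few lymphocyte markers were called. Of 21 T cell markers 2 were higher in tumor, 0 lower and 19 not called (median log2 fold change 0.23), against 22.2% higher and 22.7% lower over all genes. The 2 higher ones were inhibitory receptors. Pdcd1 had 3.55, 2.29 and 2.8 CPM in the tumors and 0.282, 0.443 and 0.144 CPM in the lungs (log2 fold change 3.29 ± 0.64 (SE), adjusted p = 0.00782). Ctla4 had 3.33, 0.813 and 1.97 CPM in the tumors and 0.469, 0.127 and 0.432 CPM in the lungs (log2 fold change 2.51 ± 0.59 (SE), adjusted p = 0.0158; with the batch term adjusted p = 0.109). Cd3e, of the T cell receptor complex, had 11.2, 5.62 and 12.3 CPM in the tumors and 8.36, 7.22 and 8 CPM in the lungs (log2 fold change 0.23 ± 0.31 (SE), adjusted p = 0.585), and tumor 6880 was the lowest of the 6. Of 15 B cell genes 2 were higher, both plasma cell genes, against 22.2% over all genes. Jchain had 29.4, 13.2 and 43.9 CPM in the tumors and 4.13, 1.84 and 2.45 CPM in the lungs (log2 fold change 3.27 ± 0.36 (SE), adjusted p = 0.001). Igkc had 59.4, 23.6 and 119 CPM in the tumors and 21.4, 15.9 and 17.1 CPM in the lungs (log2 fold change 1.61 ± 0.44 (SE), adjusted p = 0.0257). B cell genes summed to 117, 61.2 and 366 CPM in the tumors and 156, 146 and 141 CPM in the lungs. The tumor of mouse 6881 was the highest of the 6, and the list's median difference in the 3 pairs was −2.39, −2.67 and 0.97. Of 11 tested neutrophil genes 5 were lower and none higher. S100a9, a calcium-binding protein of neutrophils, had 66.8, 14.1 and 13.5 CPM in the lungs and 1.33, 3.77 and 6.06 CPM in the tumors (log2 fold change −2.63 ± 0.85 (SE), adjusted p = 0.0461), and lung 6877 was the highest lung. Of 9 natural killer genes 1 was higher and 1 lower, and of 9 dendritic cell genes 2 were lower, no more than the 22.2% higher and 22.7% lower over all genes.

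Red cell genes were lower in tumor. All 6 of them were lower (median log2 fold change −4.69), and they summed to 211, 724 and 207 CPM in the tumors and 17170, 4692 and 5973 CPM in the lungs. Lung 6877 and tumor 6880 were the highest of their tissues. Hbb-bs, an adult beta-globin, had 6356, 1732 and 2199 CPM in the lungs and 90.7, 308 and 108 CPM in the tumors (log2 fold change −4.32 ± 0.79 (SE), adjusted p = 0.00637). Its near-identical copies share reads, so single globin genes are uncertain. Among platelet genes, Ppbp and Gp9 were lower, and Pf4 had a log2 fold change of −0.74 ± 0.67, adjusted p = 0.408. Of the 5 platelet genes 4 were lower with the batch term, Pf4 among them (−1.80, adjusted p = 0.0213).

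Some chemokines, Cxcl9 and Ccl8 among them, were high in tumor and near 0 in lung, and others were lower in tumor or not called. Of 22 tested chemokine gene IDs 10 were higher and 4 lower (median log2 fold change 1.42). Cxcl9 (ENSMUSG00000029417, chr5:92321347-92328079), an interferon-gamma-induced ligand of CXCR3, had 322, 62.4 and 118 CPM in the tumors and 0.563, 0.253 and 0.072 CPM in the lungs (log2 fold change 9.01 ± 0.46 (SE), adjusted p = 0.00017). Cxcl10, a second CXCR3 ligand, had 23.7, 6.72 and 14.9 CPM in the tumors and 1.03, 0.0633 and 0 CPM in the lungs (log2 fold change 5.85 ± 0.79 (SE), adjusted p = 0.00204). Tumor 6877 was the highest in both. Ccl8, a monocyte chemokine, had 92.3, 74.8 and 95.2 CPM in the tumors and 1.03, 0.38 and 0.144 CPM in the lungs (log2 fold change 7.51 ± 0.51 (SE), adjusted p = 0.000273), Ccl7 was higher by 5.29 ± 0.62, and Ccl2 had 2 counts in the lungs and a ratio of 101 with a 95% counting interval of 27.6 to 840.2. Ccl5, which draws T cells, had 12.9, 2.36 and 6.67 CPM in the tumors and 8.73, 4.3 and 2.23 CPM in the lungs, which overlapped (log2 fold change 0.44 ± 0.52 (SE), adjusted p = 0.531). The lower ones were Cxcl12, which did not pass with the batch term (−0.45, adjusted p = 0.104), both copies of Ccl21a and Cxcl15, the chemokine of lung epithelium, which had 424, 219.5 and 217 CPM in the lungs and 0.665, 0.739 and 1.21 CPM in the tumors (log2 fold change −8.24 ± 0.45 (SE), adjusted p = 0.000192). Csf3, the growth factor of granulocytes, had 1.89, 2.81 and 3.79 CPM in the tumors and 0, 0 and 0 CPM in the lungs, at least 39.5-fold higher in tumor, and Cxcl1 and Cxcl5, which draw neutrophils, were higher by 3.11 ± 0.72 and 3.16 ± 0.94 on the log2 scale (Cxcl5 with the batch term adjusted p = 0.0559). None of the 11 tested neutrophil genes was called higher.

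Interferon-stimulated genes were in part higher in tumor. Of 25 genes 13 were higher, 1 lower and 11 not called (median log2 fold change 1.36). Zbp1, a nucleic acid sensor, had 72.3, 37.4 and 47.7 CPM in the tumors and 4.13, 1.71 and 1.58 CPM in the lungs (log2 fold change 4.48 ± 0.26 (SE), adjusted p = 0.000208). Isg15, a ubiquitin-like protein, had 47.5, 16 and 27.9 CPM in the tumors and 4.13, 2.22 and 2.52 CPM in the lungs (log2 fold change 3.28 ± 0.26 (SE), adjusted p = 0.000407). Irf7, a transcription factor of the response, had 91.9, 20.4 and 38 CPM in the tumors and 5.35, 4.88 and 4.03 CPM in the lungs (log2 fold change 3.13 ± 0.42 (SE), adjusted p = 0.002). In all 3 genes tumor 6877 was highest and tumor 6880 lowest, with every lung below. The exception was Ifit3, an antiviral protein, with 19.7, 3.18 and 7.2 CPM in the tumors against 27.3, 24.8 and 31.3 in the lungs (log2 fold change −1.83 ± 0.49 (SE), adjusted p = 0.0248). Rsad2 had 14.1, 2.73 and 12 CPM in the tumors and 16.9, 12.3 and 7.49 CPM in the lungs, which overlapped (log2 fold change −0.54 ± 0.55 (SE), adjusted p = 0.471). Of 10 genes of MHC class I and the immunoproteasome 8 were higher and none lower (median log2 fold change 1.61). Psmb8, an immunoproteasome subunit, had 488, 233 and 232 CPM in the tumors and 37.1, 30.3 and 29.8 CPM in the lungs (log2 fold change 3.21 ± 0.28 (SE), adjusted p = 0.0005). B2m, the light chain of class I, had 989, 509 and 557 CPM in the tumors and 243, 188 and 172 CPM in the lungs (log2 fold change 1.72 ± 0.27 (SE), adjusted p = 0.00351). Of 7 MHC class II genes 1 was called, the regulator Ciita, which was higher (log2 fold change 0.73 ± 0.24 (SE), adjusted p = 0.0498), and with the batch term 3 were. H2-Ab1, the beta chain of a class II molecule, had 318, 182 and 142 CPM in the tumors and 95.6, 142 and 150.3 CPM in the lungs, which overlapped (log2 fold change 0.66 ± 0.39 (SE), adjusted p = 0.216), and passed with the batch term (1.18, adjusted p = 0.0184).

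The promoter of Isg15 is shown for the interferon motif, since Isg15 was among the members with a high fold. Promoters are RefSeq windows of 300 bases on GRCm38.p6, 250 before to 50 after the start, read 5′ to 3′ on the gene's own strand, with capitals marking motif matches on either strand. The interferon-stimulated response element was searched as GAAA and GAAA parted by any 2 bases. It was found in 10 of the 20 promoters (50%) against 3.44% of all 32851 in the table, with 18 of the 25 genes matched. A match is a description and no site was measured. Motif shares here and below depend on which genes a list names and not on their tumor or lung values. They therefore say nothing about why the genes differed. Isg15 (chr4:156200769-156201068, minus strand) held 3 overlapping matches.
Isg15 promoter: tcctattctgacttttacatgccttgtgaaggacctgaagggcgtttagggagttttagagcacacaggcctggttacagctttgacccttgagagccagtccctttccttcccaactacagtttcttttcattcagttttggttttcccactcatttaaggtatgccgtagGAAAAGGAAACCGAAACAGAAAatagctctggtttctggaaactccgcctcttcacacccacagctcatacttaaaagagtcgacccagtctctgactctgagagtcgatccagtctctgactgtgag

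Every gene of the lists of DNA replication and mitosis was higher in tumor. All 27 DNA replication genes (median log2 fold change 2.62) and all 28 mitosis genes (median log2 fold change 3.61) were higher, against 22.2% of all genes. In every one of the 55 the lowest tumor was above the highest lung. Among all 7810 called genes, tissues did not overlap in 7560, so such a separation was common to called genes. Every member of both lists was also called with the batch term. Mki67 (ENSMUSG00000031004, chr7:135689784-135716361), the proliferation antigen Ki-67, had 104, 134 and 172 CPM in the tumors and 12.4, 18 and 10.7 CPM in the lungs (log2 fold change 3.32 ± 0.30 (SE), adjusted p = 0.000556). Cdc20, the activator of the anaphase-promoting complex, had 92.2, 84.8 and 78.1 CPM in the tumors and 3.38, 3.17 and 1.01 CPM in the lungs (log2 fold change 5.18 ± 0.38 (SE), adjusted p = 0.000329). Plk1, a mitotic kinase, had 34.8, 49.9 and 28.5 CPM in the tumors and 2.25, 1.14 and 0.648 CPM in the lungs (log2 fold change 4.90 ± 0.40 (SE), adjusted p = 0.000413). The tumor of mouse 6877 was lowest in Mki67 and not in Cdc20 or Plk1. Mcm5, of the replicative helicase, had 61.2, 46.2 and 49 CPM in the tumors and 5.73, 9.43 and 5.69 CPM in the lungs (log2 fold change 2.93 ± 0.29 (SE), adjusted p = 0.000718). Tk1, thymidine kinase, had 153, 164 and 140.3 CPM in the tumors and 12.6, 5.45 and 3.39 CPM in the lungs (log2 fold change 4.61 ± 0.41 (SE), adjusted p = 0.000536). The list medians of the 3 pairs were 3.74, 3.62 and 3.70 for mitosis and 2.44, 2.28 and 2.50 for replication, close to one another.

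The promoters of 2 mitotic genes and of 1 replication gene are shown as examples of the lists. The cell cycle homology region, searched as TTTGAA or TTCGAA, was present in 19 of the 24 promoters (79.2%) against 19.2% of all 32851, and the CCAAT box in 19 of the 24 promoters (79.2%) against 37.4% of all 32851, for the mitosis list. For the replication list the E2F site, searched as TTTCCCGC, TTTCGCGC, TTTGCCGC or TTTGGCGC, was present in 9 of the 28 promoters (32.1%) against 2.26% of all 32851. Of the 28 mitosis genes 23 had a promoter in the table, as had 23 of the 27 replication genes. Cdc20 (chr4:118437294-118437593, minus strand) held 1 cell cycle homology region between 2 CCAAT boxes, and Plk1 (chr7:122159185-122159484, plus strand) held 1 of each. In Mcm5 (chr8:75109259-75109558, plus strand) 2 E2F matches overlapped.
Cdc20 promoter: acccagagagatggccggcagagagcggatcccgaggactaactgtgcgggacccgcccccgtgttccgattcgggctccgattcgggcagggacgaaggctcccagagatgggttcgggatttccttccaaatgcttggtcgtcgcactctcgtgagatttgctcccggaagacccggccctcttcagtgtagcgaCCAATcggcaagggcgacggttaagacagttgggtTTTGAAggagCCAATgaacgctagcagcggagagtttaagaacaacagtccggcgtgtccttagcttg
Plk1 promoter: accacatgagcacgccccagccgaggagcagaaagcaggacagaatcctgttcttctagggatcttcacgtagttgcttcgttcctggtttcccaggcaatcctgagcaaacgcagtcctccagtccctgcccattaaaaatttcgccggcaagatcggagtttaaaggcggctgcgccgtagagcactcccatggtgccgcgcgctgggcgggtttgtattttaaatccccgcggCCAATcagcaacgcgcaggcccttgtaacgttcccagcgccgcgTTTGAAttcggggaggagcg
Mcm5 promoter: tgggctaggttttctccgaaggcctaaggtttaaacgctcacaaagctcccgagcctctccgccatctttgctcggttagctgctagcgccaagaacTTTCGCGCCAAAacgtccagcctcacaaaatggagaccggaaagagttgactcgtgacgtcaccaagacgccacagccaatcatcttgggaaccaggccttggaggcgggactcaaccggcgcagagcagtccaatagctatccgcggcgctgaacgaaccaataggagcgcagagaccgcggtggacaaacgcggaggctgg

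Regulators of the cycle went both ways. Of 22 regulators 9 were higher, 5 lower and 8 not called (median log2 fold change 0.20), against 22.2% higher and 22.7% lower over all genes. Myc had 42.2, 49 and 56.2 CPM in the tumors and 7.51, 5.45 and 4.03 CPM in the lungs (log2 fold change 3.15 ± 0.31 (SE), adjusted p = 0.00071). Ccnd1, cyclin D1, had 399, 435 and 389 CPM in the tumors and 118, 129 and 117 CPM in the lungs (log2 fold change 1.75 ± 0.23 (SE), adjusted p = 0.0019), and the cyclins E, Ccne1 and Ccne2, were higher by 3.25 ± 0.54 and 3.16 ± 0.35. Cdkn2a, the tumor suppressor locus of p16 and p19ARF, had 79.6, 73.5 and 55.7 CPM in the tumors and 1.69, 1.52 and 2.31 CPM in the lungs (log2 fold change 5.23 ± 0.31 (SE), adjusted p = 0.000215), and Trp53 was higher by 1.33 ± 0.20. Inhibitors of the CIP and KIP family were lower or not called. Cdkn1c, the imprinted p57, had 19.4, 20.8 and 27.3 CPM in the lungs and 0.222, 0 and 0.379 CPM in the tumors (log2 fold change −6.86 ± 0.61 (SE), adjusted p = 0.000531), Cdkn1a was lower (−1.27 ± 0.23 on the log2 scale), and Cdkn1b was not called (0.07 ± 0.24, adjusted p = 0.823). Replication-dependent histones followed the division genes, with 61 of 64 higher and none lower (median log2 fold change 4.56). Histone copies share sequence, and Hist1h4k, at 15700 ± 3925 in the tumors and 1629 ± 451 in the lungs (coding TPM, SD, n = 3), is uncertain as a single gene.

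Most genes of glycolysis were higher in tumor. Of 28 genes of glycolysis and hypoxia 20 were higher and 2 lower (median log2 fold change 1.63). Slc2a1, the glucose transporter GLUT1, had 192, 155 and 157 CPM in the tumors and 19.6, 10.3 and 9.22 CPM in the lungs (log2 fold change 3.76 ± 0.27 (SE), adjusted p = 0.000301). Pgk1, a glycolytic kinase, had 434, 282 and 225 CPM in the tumors and 26.7, 20.4 and 26 CPM in the lungs (log2 fold change 3.65 ± 0.29 (SE), adjusted p = 0.000397). Ldha, which makes lactate, had 622, 441 and 407 CPM in the tumors and 94, 78.2 and 70 CPM in the lungs (log2 fold change 2.59 ± 0.24 (SE), adjusted p = 0.000627). Car12, a membrane carbonic anhydrase, had 70.5, 40.8 and 37.5 CPM in the tumors and 0.469, 0.38 and 0 CPM in the lungs (log2 fold change 7.46 ± 0.55 (SE), adjusted p = 0.000326). The 2 lower ones were Vegfa, given above, and Pfkfb3, which sets the level of a glycolysis activator, with 101, 100.1 and 91 CPM in the lungs and 20.3, 21.6 and 32.8 CPM in the tumors (log2 fold change −2.00 ± 0.25 (SE), adjusted p = 0.0016). The hypoxia factor Hif1a had a log2 fold change of 0.18 ± 0.22, adjusted p = 0.54. The core of the hypoxia response element, searched as ACGTG or GCGTG, was present in 29 of the 37 promoters (78.4%) against 43.8% of all 32851, with 27 of the 28 genes matched.

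Genes of serine synthesis were higher as well. Of 17 genes of serine synthesis, amino acid transport and ATF4 targets 12 were higher and 1 lower (median log2 fold change 2.56). Psat1, the aminotransferase of serine synthesis, had 172, 118 and 140.1 CPM in the tumors and 5.07, 2.53 and 2.67 CPM in the lungs (log2 fold change 5.44 ± 0.27 (SE), adjusted p = 0.00017). Phgdh, its dehydrogenase, had 139.8, 86.2 and 86.6 CPM in the tumors and 7.51, 3.67 and 3.39 CPM in the lungs (log2 fold change 4.48 ± 0.24 (SE), adjusted p = 0.000181). Asns, asparagine synthetase, had 39.3, 43 and 37.4 CPM in the tumors and 3.29, 7.41 and 7.85 CPM in the lungs (log2 fold change 2.75 ± 0.31 (SE), adjusted p = 0.00114). Slc7a5, a carrier of large neutral amino acids, had 192, 226 and 164 CPM in the tumors and 32.3, 4.24 and 3.89 CPM in the lungs (log2 fold change 4.58 ± 0.72 (SE), adjusted p = 0.00354), and lung 6877 was above the lungs of batch 1. The member that was lower was Slc1a5, a glutamine carrier (log2 fold change −0.68 ± 0.21 (SE), adjusted p = 0.0427). The stress genes Chac1 and Sesn2 and the cystine carrier Slc7a11 were not called, with 0.10 ± 0.41, −0.18 ± 0.24 and −0.02 ± 0.50 on the log2 scale. The C/EBP-ATF response element, searched as TGATGNAA, was present in 5 of the 15 promoters (33.3%) against 3.97% of all 32851 for this list, with 14 of the 17 genes matched. The promoter of Asns (chr6:7693160-7693459, minus strand) is shown because it held a match near the start.
Asns promoter: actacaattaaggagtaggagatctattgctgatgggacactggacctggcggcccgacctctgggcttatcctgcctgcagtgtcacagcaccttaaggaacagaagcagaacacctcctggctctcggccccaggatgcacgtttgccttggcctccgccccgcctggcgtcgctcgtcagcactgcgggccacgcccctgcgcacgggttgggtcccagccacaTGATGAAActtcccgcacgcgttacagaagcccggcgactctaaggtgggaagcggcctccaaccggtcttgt

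Genes of cholesterol and fatty acid synthesis went both ways, with 5 of 22 higher and 5 lower, near the 22.2 and 22.7% over all genes. Fasn had 229, 423 and 309 CPM in the tumors and 489.9, 399 and 277 CPM in the lungs, which overlapped (log2 fold change −0.28 ± 0.34 (SE), adjusted p = 0.536). Of 17 genes of the unfolded protein response 10 were higher and 2 lower (median log2 fold change 0.91). Hspa5, the chaperone BiP, had 482, 341 and 419 CPM in the tumors and 209, 164 and 135 CPM in the lungs (log2 fold change 1.30 ± 0.25 (SE), adjusted p = 0.008), and Herpud1, of protein degradation at the endoplasmic reticulum, was lower (log2 fold change −1.90 ± 0.20 (SE), adjusted p = 0.00094). Among heat shock chaperones 5 of 13 were higher and 2 lower, with Hspb1 lower (log2 fold change −2.38 ± 0.20 (SE), adjusted p = 0.000446) and the stress-inducible Hspa1a at −0.55 ± 0.45, adjusted p = 0.357. Immediate early genes were lower in 9 of 22 cases and higher in 1. Dusp1, a MAP kinase phosphatase, had 246, 214 and 216 CPM in the lungs and 22.1, 16.9 and 8.49 CPM in the tumors (log2 fold change −3.93 ± 0.33 (SE), adjusted p = 0.000444). Fos had 33.6, 57.2 and 63.9 CPM in the lungs and 60.7, 27.3 and 16.8 CPM in the tumors, which overlapped (log2 fold change −0.74 ± 0.53 (SE), adjusted p = 0.306).

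**Figure D4:**
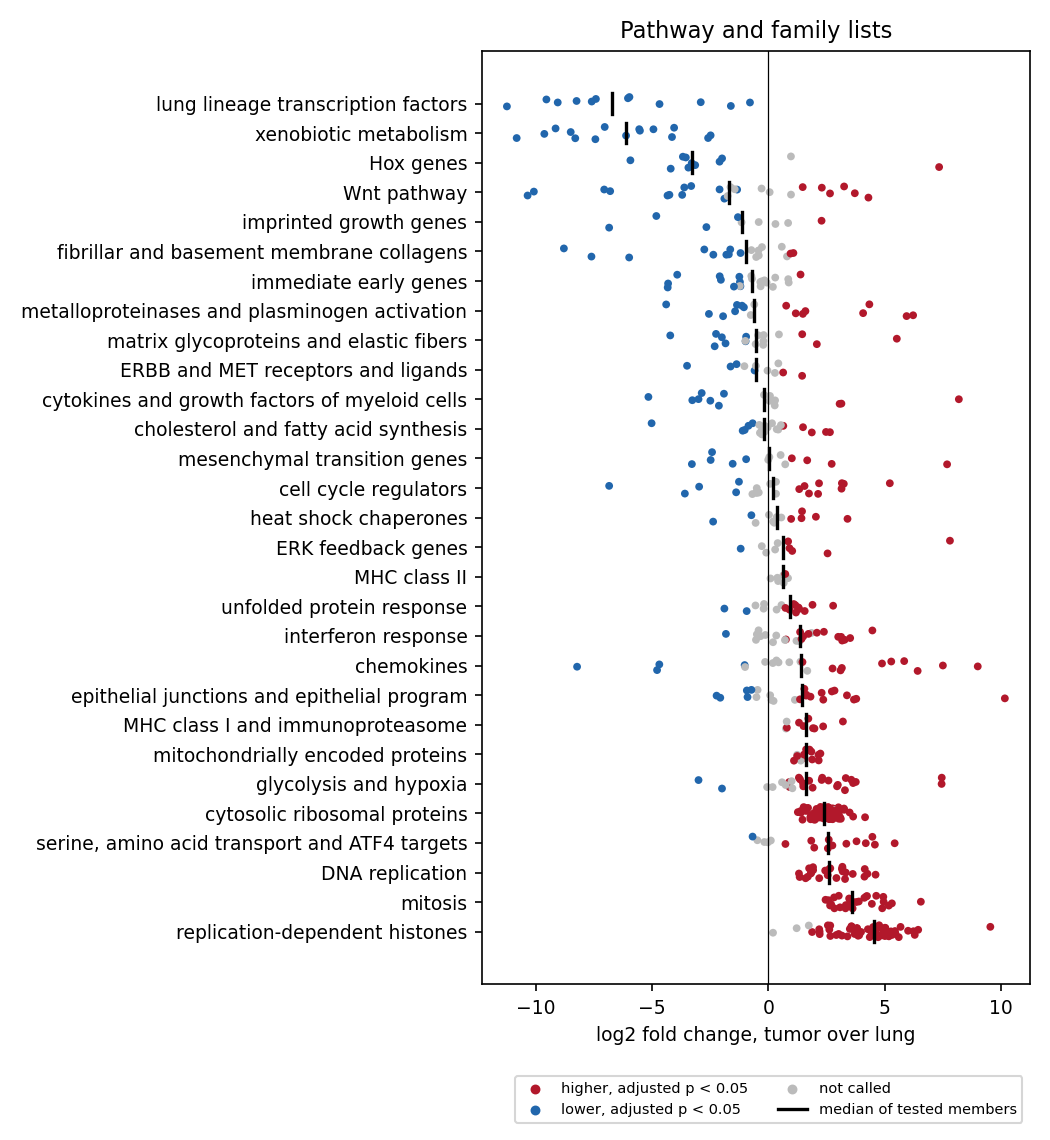
Log2 fold change of tumor over lung for the tested members of pathway and family lists, ordered by median, with 1 point per gene, red or blue where the gene passed the adjusted p and a bar at the median. Lung lineage factors and xenobiotic enzymes lie at the top, with medians of −6.74 and −6.13, and histone and mitosis genes at the bottom, with medians of 4.56 and 3.61.

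Epithelial and mesenchymal genes both were mixed. Of 24 genes of junctions and the epithelial program 13 were higher and 5 lower (median log2 fold change 1.45). Pkp1, a desmosomal plakophilin, had 13.4, 9.46 and 12.1 CPM in the tumors and 0, 0 and 0 CPM in the lungs, at least 154-fold higher in tumor. Esrp1, a splicing factor of epithelia, had 79.3, 81.4 and 56.5 CPM in the tumors and 15.1, 14.6 and 14.1 CPM in the lungs (log2 fold change 2.29 ± 0.21 (SE), adjusted p = 0.000595). Cldn4, a claudin, had 13.2, 5.98 and 7.35 CPM in the tumors and 1.97, 0.57 and 1.3 CPM in the lungs (log2 fold change 2.85 ± 0.38 (SE), adjusted p = 0.00201). Cdh1, the epithelial cadherin, had 122, 142 and 129.5 CPM in the tumors and 229, 152 and 170 CPM in the lungs and was not called, although the tissues did not overlap (log2 fold change −0.47 ± 0.25 (SE), adjusted p = 0.179). Of 13 genes of mesenchymal transition 4 were higher and 5 lower (median log2 fold change 0.04), against 22.2% higher and 22.7% lower over all genes. Twist1, a transition factor, had 19.2, 17.1 and 15.2 CPM in the tumors and 0.0939, 0.127 and 0 CPM in the lungs, 3 counts in the lungs and a ratio of 228 with a 95% counting interval of 77.6 to 1108. Cdh2, the neural cadherin, had 16.5, 11.4 and 10.3 CPM in the tumors and 1.13, 2.28 and 2.31 CPM in the lungs (log2 fold change 2.72 ± 0.44 (SE), adjusted p = 0.00392). Zeb1, a repressor of Cdh1, had 92.8, 91.7 and 77.5 CPM in the lungs and 6.76, 7.09 and 14.2 CPM in the tumors (log2 fold change −3.30 ± 0.34 (SE), adjusted p = 0.000815). Vim, vimentin, had 372, 508 and 512 CPM in the lungs and 149, 173 and 153 CPM in the tumors (log2 fold change −1.54 ± 0.25 (SE), adjusted p = 0.0038). In these 4 genes the tissues did not overlap.

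Positional and signaling genes set the organs apart. Of 39 Hox genes 12 were abundant enough to test, of which 10 were lower, 1 higher and 1 not called (median log2 fold change −3.31). The lower ones were of the A and B clusters. Hoxa5, Hoxb5, Wnt7b, Axin2, Igf2 and H19 each overlap a gene of the other strand, and strand use in counting is not given, so these values may hold reads of both. Hoxb5 had 10.1, 13.8 and 12.6 CPM in the lungs and 0.111, 0.222 and 0.227 CPM in the tumors (log2 fold change −5.94 ± 0.42 (SE), adjusted p = 0.000301). Hoxa5 had 12.8, 24.6 and 29 CPM in the lungs and 1.33, 2.44 and 1.74 CPM in the tumors (log2 fold change −3.56 ± 0.30 (SE), adjusted p = 0.000468). Hoxc8, of the trunk, had 1.55, 1.77 and 1.44 CPM in the tumors and 0, 0 and 0 CPM in the lungs, at least 21.4-fold higher in tumor, which did not pass with the batch term (adjusted p = 0.0539). Of 24 Wnt pathway genes 6 were higher and 12 lower (median log2 fold change −1.69), against 22.2% higher and 22.7% lower over all genes. The ligand Wnt3a had 10.2, 12.9 and 15.2 CPM in the lungs and 0, 0 and 0 CPM in the tumors, at least 155-fold lower in tumor. Its relative Wnt7a had 12.7, 8.99 and 11.4 CPM in the lungs and 0, 0 and 0 CPM in the tumors, at least 129-fold lower. Wnt7b, the ligand of lung and mammary epithelium, had 35.6, 43.3 and 41.5 CPM in the tumors and 2.06, 1.46 and 2.67 CPM in the lungs (log2 fold change 4.31 ± 0.29 (SE), adjusted p = 0.000273), and the feedback gene Axin2 had 27.7, 27.7 and 30.6 CPM in the lungs and 3.33, 2.36 and 2.96 CPM in the tumors (log2 fold change −3.33 ± 0.25 (SE), adjusted p = 0.000342). Of 9 tested imprinted growth genes 1 was higher and 4 lower, beside the same shares of all genes. The imprinted neighbours H19 and Igf2 ran in opposite directions. Igf2 had 6.48, 13.9 and 11.2 CPM in the lungs and 0.222, 0.222 and 0.682 CPM in the tumors (log2 fold change −4.83 ± 0.52 (SE), adjusted p = 0.000926). H19 had 12.8, 8.35 and 3.33 CPM in the tumors and 3.47, 0.696 and 1.15 CPM in the lungs, with the lung of mouse 6877 within the tumors (log2 fold change 2.29 ± 0.51 (SE), adjusted p = 0.0128).

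Genes of ribosomes and mitochondria were higher in tumor, by less with the batch term than in the paired fit. Of 80 tested genes with a cytosolic ribosomal protein symbol 79 were higher and none lower (median log2 fold change 2.41). The list was drawn by symbol alone, so it also holds related genes such as Rps19bp1 and Rpl7l1 and copies such as Rps12-ps3. It summed to 53610, 26270 and 45370 CPM in the tumors and 13510, 5504 and 5906 CPM in the lungs. Lung 6877, of the batch of the tumors, was the highest lung, and the list's median difference in the 3 pairs was 1.98, 2.21 and 2.93. With the batch term the median was 1.89 and 78 members were higher. The processed pseudogenes, many of them copies of such genes, were also higher in 266 of 623 cases and lower in 22, and reads may be shared between a gene and its copies. Of 13 mitochondrially encoded proteins 11 were higher (median log2 fold change 1.62), 8 with the batch term (1.12). mt-Co1, of cytochrome oxidase, had 6284, 8405 and 6738 CPM in the tumors and 3056, 1252 and 1063 CPM in the lungs (log2 fold change 2.16 ± 0.50 (SE), adjusted p = 0.015). Lung 6877 lay between the tumors and the other lungs. The part of the batch in these lists was not tested beyond that fit.

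The 3 pairs were close for most genes. Over 9044 genes whose mean log2 CPM was 3 or more, the difference between tumor and lung of 1 mouse lay within 1 on the log2 scale of the mean of the other pairs for 7923 genes in mouse 6877, 8403 in mouse 6880 and 7910 in mouse 6881. Over the 56 gene lists, the median of the pair of mouse 6877 had the sign of the paired fit's median in 53, and of the 40 lists with a median of at least 1 in size in 39. With the batch term the sign was the same in all 40. The pairs of mice 6880 and 6881 had the sign of the paired fit's median in 53 and 52 of the 56. All 3 pairs are part of that fit, so its signs are not independent of theirs. Single genes parted by mouse. Zswim9, a zinc finger gene, had 2.22, 32.4 and 78.5 CPM in the tumors and 97.4, 28.1 and 16 CPM in the lungs, so the pairs differed by −5.36, 0.20 and 2.28 on the log2 scale. C1qtnf6, a secreted relative of C1q, had 57, 62.1 and 47.5 CPM in the tumors and 1.41, 43.2 and 20.8 CPM in the lungs, with lung 6877 far below the other lungs. Rad54l, of DNA repair, had 74.8, 30.7 and 58.6 CPM in the tumors and 1.78, 9.37 and 36.8 CPM in the lungs. Among globins, Hba-a1 had 3084, 1007 and 1627 CPM in the lungs and 36.3, 153 and 25.5 CPM in the tumors, and tumor 6880 was the highest tumor. None of Zswim9, C1qtnf6 and Rad54l passed the threshold in the paired fit.

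**Figure D5:**
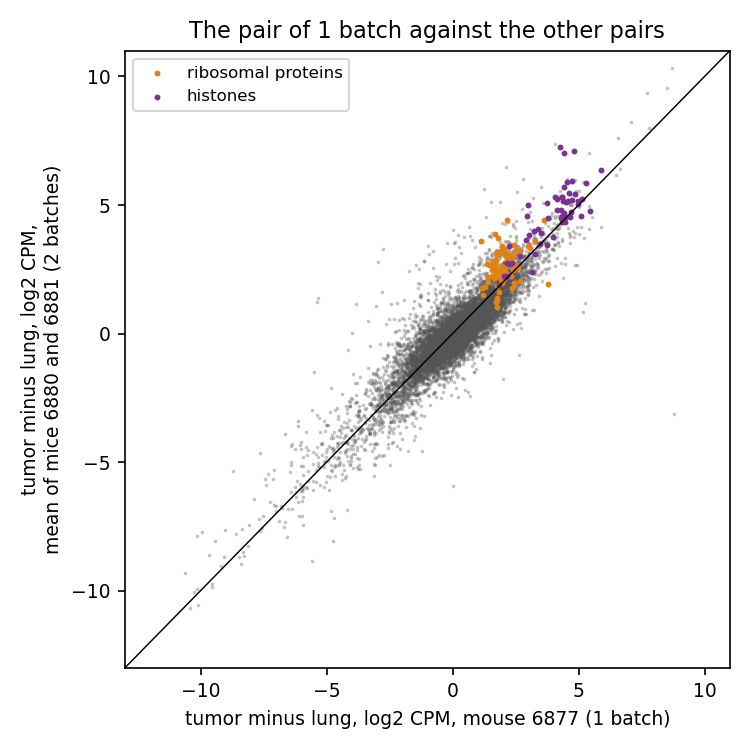
Mean difference of log2 CPM between tumor and lung in mice 6880 and 6881, whose tissues were of 2 batches (y axis), against the difference in mouse 6877, whose tissues were of 1 batch (x axis), 1 point per gene whose mean log2 CPM was 3 or more, and the line of equality. Ribosomal protein genes (orange) and histone genes (purple) lie mostly above the line, and the list median for ribosomal proteins was 1.98 in mouse 6877 against 2.21 and 2.93 in the others.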

How the data were processed

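Total RNA of 3 tumors and 3 lungs of the same mice was depleted of ribosomal RNA and sequenced as single reads of 75 bases, per the labels' protocols. Fragmentation depended on RNA quality. The deposited tables hold estimated counts and TPM per gene, and the submitters' processing notes name Salmon, DESeq2 1.18.1 and mm10, without saying how strand was used. The authors' count and TPM tables differ only by gene length and 1 factor per library. The counts may therefore be TPM scaled by length and not Salmon's own counts, in which case floors and counting intervals are approximate. Over protein-coding genes 2.76 to 6.99% of the deposited TPM was found, so coding TPM was rescaled to those genes. Of 46679 gene IDs 46269 were named from GENCODE M21 and 410 were not.

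Counts were rounded and fitted in R 4.3.3 with edgeR 4.0.16 (quasi-likelihood test, TMM factors, filter on low counts, mouse as block, Benjamini-Hochberg adjustment at 0.05). The SE is the log2 fold change divided by the root of the F statistic. Zero counts over a tissue were set to a floor of 3 counts, and ratios at 1 to 3 counts have exact 95% intervals, both covering counting error only. Log2 CPM by library used a prior count of 2. Pairs come from the same animals per the labels; deviations from tissue means correlated between tissues of a mouse by 0.13, 0.22 and −0.25 over 17419 genes. The batch fit added a batch term and 4 libraries of 2 normal lungs. The members, gene lists and tests were chosen with earlier results of these data known. Named genes were the 12 largest in each direction, up to 4 per list and the 3 largest pair deviations in each direction. The 12 were taken from called genes with an official symbol and a mean log2 CPM of 1 or more. They also had to have 1 direction in all 3 pairs and tissues that did not overlap. Genes outside this rule, such as cartilage and SOX genes and contrasting list members, were chosen after their values were seen. Of 229 genes named by the rule 76 overlap a gene of the other strand. Alternatives were DESeq2 1.42.0, limma 3.58.1, other scalings, TPM, no filter, no block and leaving out a mouse. The fit was also run on simulated counts in which few genes were changed and no batch difference was set. That run cannot show the error rate of the fit in this design. Promoters are from RefSeq on GRCm38.p6. Some genes are not reported here.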

Additional observations from a re-analysis of the deposited data

How the results depend on the processing

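Under each alternative listed here no gene called in the paired fit was called in the opposite direction. The count of 7810 genes ranged from 4905 to 7181 when 1 mouse was left out, and leaving out mouse 6880 gave the 4905. In the libraries of batch 2 alone, an alternative chosen after seeing the data, in which the lung of mouse 6877 is the 1 tumor-bearing lung and its spread is taken from the other groups, 3927 genes passed. Without the replicate block on the mouse 8143 genes passed, so the pairing moved the count by less than 1.5 times. Other scalings, DESeq2, limma, TPM, no filter and protein-coding genes alone gave 7267 to 8343. With group and batch over 11 libraries 8471 genes passed, and 9786 with limma voom over 13 libraries and a correlation within mouse. Among the share of calls, 49.5% were higher in tumor, and 53.5 and 53.0% on log2(TPM + 1) and log2(TPM + 0.1). Among 333 single genes followed, those that changed sign were not called in the paired fit. With the replicate block and batch term these were Cpa3, a mast cell protease, at −0.26, Csf1r at 0.28 and Sesn2 at 0.0014. With group and batch they were Etv5 at −0.076, Rsad2 at 0.11, Csf1r at 0.22, Rad54l at −1.02 and Rn7s1 at −0.20. With voom over 13 libraries they were Csf1r at 0.30 and Rn7s1 at −0.074. Slc7a11 was at 0.13 in voom, at 0.024 and 0.052 on the TPM scales and at 0.098 without the block, and Esr1 at −0.016 with upper quartile factors. In batch 2 alone they were Pparg at 0.32, Met at −0.23, Etv5 at −0.59, Fos at 0.026 and Rn7s1 at −0.59. When 1 mouse was left out, the log2 fold changes that changed sign ranged as follows: Pparg −2.67 to 0.81, Cdkn1b −0.12 to 0.31, Lipe −0.35 to 0.23, Etv5 −0.16 to 0.30, Lpl −1.001 to 0.14, Esr1 −0.043 to 0.16, Rsad2 −1.17 to 0.26, Fasn −0.50 to 0.12. In the same runs the ranges were Mrc1 −0.98 to 0.58, Chac1 −0.0904 to 0.38, Slc7a11 −0.58 to 0.65, Pf4 −1.37 to 0.14, Foxj1 −0.63 to 0.096, Sox6 −0.15 to 0.78, Zswim9 −2.30 to 1.25 and Hspa1a −1.10 to 0.066. Called genes that lost the call under at least 1 alternative, batch 2 alone aside, were Acta2, Aqp5, Btn1a1, Ccl21a, Ciita, Col11a2, Ctla4, Cxcl12, Cxcl5, Dusp6, Erbb2, Gp9, H19, Hoxc8, Ifit3, Igkc, Klf5, Krt7, Mb, Mbp, Myh6, Pgr, S100a9, Slc1a5, Tnnt2 and mt-Co1. The cause was not tested. Genes with few counts in a tissue are limited by depth, and among tested genes above the floor of 3 counts in the other tissue 31 had 0 counts in the lungs and 120 in the tumors. With the batch term the list median was 4.87 for milk genes, −6.43 for mesothelium, −5.74 for heart muscle, −6.00 for alveolar macrophages, −1.81 for neutrophils, −5.71 for red cells, −6.14 for lung lineage factors and 0.91 for fibroblasts of any tissue.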
